A study of Mus musculus with 6 samples.

Results

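The genes described here encode proteins that load, prime, fuse and recover synaptic vesicles. They were 42 genes chosen for that function, and every non-control probe whose gene name in the array files was one of them was taken. This gave 97 of the 41174 non-control probes on the array, each 60 bases long. Total RNA came from whole prefrontal cortex of BTBR T+ Itpr3tf/J mice (BTBR; 3 arrays) and of wild-type C57BL/6J mice (3 arrays). All mice were male, aged 5 months and without drug treatment, and the design text gives 3 mice per strain, so each array stands for 1 mouse. BTBR is an inbred strain used as a mouse model of autism-like behaviour, and it lacks a corpus callosum, the main fibre tract between the hemispheres. C57BL/6J is the common laboratory strain to which it was compared. The strain background field of the BTBR samples reads C57BL/6J, whereas their title, source and genotype fields all give BTBR, which is the group used here.

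At a nerve terminal, vesicles filled with transmitter are tethered at the active zone, primed by Munc13 and RIM proteins, and fused when the vesicle SNARE synaptobrevin zips up with the plasma membrane SNAREs syntaxin and SNAP-25. Synaptotagmins sense the calcium that triggers fusion, complexins clamp and assist it, and NSF with its SNAP adaptors pulls the spent SNARE complexes apart. The membrane is then retrieved by clathrin, dynamin and their partners. In the prefrontal cortex most of these proteins are made by excitatory pyramidal neurons and by interneurons, and several exist as paralogues used by different neurons.

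Of the 97 probes, 90 entered the comparison, for which 3 or more of the 6 arrays, of either strain, had to show a signal well above background. They cover 41 of the 42 genes, and 87 of them were well above background on all 6 arrays. Sv2c was represented by a single probe that did not enter. The other 6 probes left out were a pair for Syn3 and 1 each for Rab27b, Vamp1, Stxbp5 and Sh3gl2. Levels are log2 signals relative to the 75th percentile of each array, so 0 is that percentile, and differences are BTBR minus C57BL/6J on the same log2 scale. A probe passed the test when its p-value in limma, adjusted by the Benjamini-Hochberg method over all 30011 entered probes of the array, was under 0.05.

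Arrays of BTBR 2 and C57BL/6J 3 stood apart from the others of their strain by their regional markers. The summed level of 8 genes of striatal projection neurons, by the brightest probe of each, was 16.7, 59.1 and 13.8 in BTBR mice 1, 2 and 3. In C57BL/6J mice 1, 2 and 3 it was 23.8, 30.7 and 191.7 (linear signal over the 75th percentile). All 5 genes of excitatory cortical neurons were measured, and the mean deviation of their probes on the C57BL/6J 3 array was −0.69 from the mean of the 6 mice. General neuron markers were Rbfox3, Tubb3, Snap25, Stmn2 and Nefl, of which Snap25 is also one of the 42 genes described here. By the brightest probe of each they summed to 112.0 to 122.8 in BTBR mice and 116.3 to 135.0 in C57BL/6J mice. Of their 10 probes 2, both of Nefl, passed as lower in BTBR. Of the oligodendrocyte probes, 5 of 15 passed as lower in BTBR. A lower signal in bulk tissue cannot tell fewer cells of a type from less RNA per cell. Between 28100 and 30665 probes per array were well above background.

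Each of 6 presynaptic genes had 1 probe past the test, and in each the other probes of the gene did not pass. Sequences are shown here because only 1 probe per gene passed. They are those of the probes that passed, except that of Rab27b, and for Syt1 and Unc13b of a second probe that did not. The second Syt1 probe also lay lower in every BTBR mouse. The sequences are those of the array files, 5′ to 3′ on the sense strand of the gene, with mm9 positions of the whole probe. Capitals mark the hexamer AATAAA, the usual polyadenylation signal. The last 30 bases of the probe are printed for the first 5, and all 60 for the last pair. The Rab27b probe is described below by its values only.
Napa A_51_P246816 (past the test; chr7:16703264-16703323, + strand): tacacaaatAATAAAaacgagaggccatgc
Sv2b A_52_P478174 (past the test; chr7:82349004-82349063, − strand): aaccaatccatctgtaactgacttacgcat
Syt1 A_51_P298873 (past the test; chr10:107937048-107937107, − strand): aactttctattgaatcctttgagtaccaag
Unc13b A_52_P1005171 (past the test; chr4:43181348-43181407, + strand): aagagagtaatgaaacttcattggagagta
Unc13a A_51_P188704 (past the test; chr8:74184257-74184316, − strand): tttctatttacattttaaaattacatttat
Syt1 A_52_P679799 (not past the test; chr10:107937731-107937790, − strand): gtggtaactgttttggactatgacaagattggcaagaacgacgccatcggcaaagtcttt
Unc13b A_52_P26746 (not past the test; chr4:43276374-43276433, + strand): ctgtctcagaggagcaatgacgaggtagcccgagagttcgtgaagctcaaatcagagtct

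The 6 probes that passed had 33.3% to 36.7% G and C (median 35.0%), against a median of 41.7% over the 90 presynaptic probes and 41.7% over all entered probes. Of the 90, 28 had 36.7% or less. All called probes of the array together had a median of 41.7%. The hexamer AATAAA was in 3 of the 97 presynaptic probes (3.09%) and in 4.78% of all non-control probes, read on the sense strand. On the opposite strand it was in 3.09% of presynaptic probes and 4.25% of all.

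The presynaptic probes passed the test about as often as probes of the whole array. Of 90 entered probes, 6 passed (6.67%), beside 5.44% of all entered probes, so the share is near that of the whole array. All 6 were lower in BTBR, where 3.25% of all probes passed in that direction, and 0 were higher, beside 2.19%. The Sv2b probe among them entered through the C57BL/6J arrays alone, and the Unc13b probe was below that mark on 1 BTBR array. Among the 87 presynaptic probes well above background on all 6 arrays, refitted on such probes only, 4 passed, beside 1350 of 27342 probes of the array. With no adjustment, 15 of the 90 probes (16.7%) had p under 0.05, 10 with a lower and 5 with a higher mean in BTBR, beside 16.8% of all entered probes. The median difference was 0.08 over the 90 probes and 0.04 over all 30011. Differences lay within 0.25 of 0 in 64 of the 90 probes (71.1%), against 65.1% of all probes, and within 0.5 in 75 (83.3%), against 85.6%. The 3 mice of one strain all lay above or all below those of the other in 20 probes (22.2%), beside 22.8% of all probes. The median standard error was 0.15 for the presynaptic probes and 0.16 for all. In simulated data with 200 changed probes among 30011, the fit found 24% of probes raised 2-fold and 20% of those lowered 2-fold. It found 0% of those changed 1.5-fold and 82% of those raised 4-fold. In the data themselves 1632 probes passed, which makes the adjustment less strict, so these shares do not carry over. Probes of Syt1, Unc13b and Unc13a passed at 1.91-fold, 1.84-fold and 1.55-fold. With 3 mice per strain, a probe that did not pass can still differ.

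**Figure D1:**
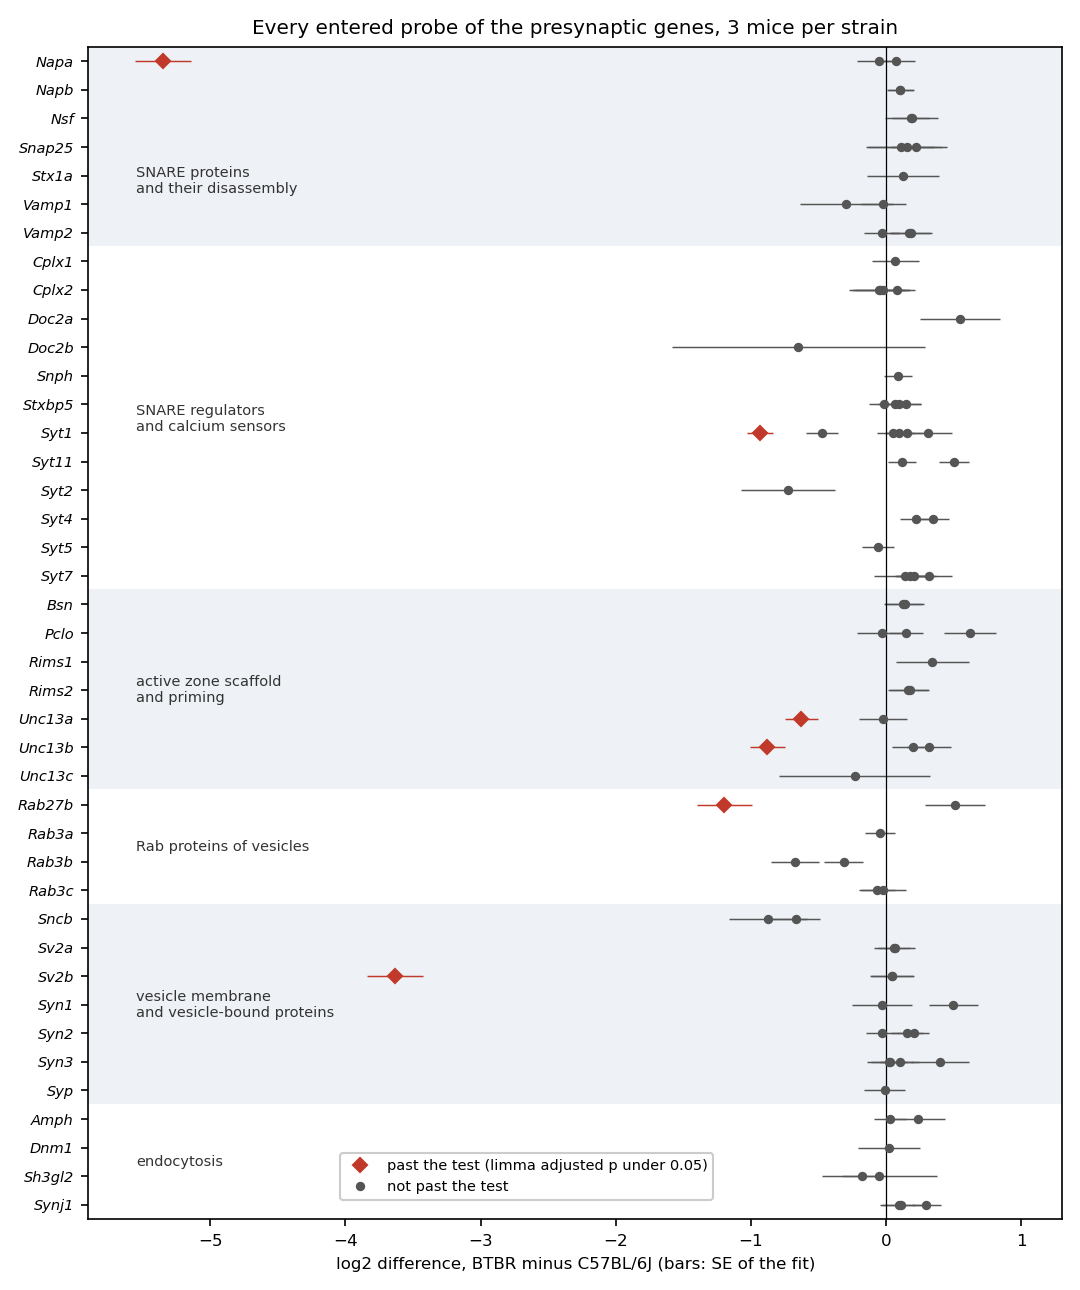
Log2 difference (BTBR minus C57BL/6J, x axis) of every entered probe, 1 row per gene, grouped by role, with bars for the standard error of the fit (3 mice per strain). Red diamonds mark the 6 probes past the test, all left of 0, and the other 84 probes lie between −0.87 and 0.62.

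Leaving out BTBR 2 and C57BL/6J 3 together, the 2 arrays with the highest striatal markers in their strain, 3 of the 6 probes passed, those of Napa, Sv2b and Syt1. The remaining 3, of Rab27b, Unc13b and Unc13a, had larger or like differences there (−1.40, −0.87 and −0.71) with adjusted p-values of 0.0602, 0.0966 and 0.0705. An array probe reports the amount of an RNA together with how well that RNA pairs with its bases, and between inbred strains these cannot be told apart. Across the array, 694 gene names with at least 2 entered probes had a probe past the test, and in 521 of them (75.1%) exactly 1 probe passed, so a single probe per gene was the usual pattern here.

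SNARE proteins and the machinery that takes them apart had 16 entered probes of 7 genes, with a median difference of 0.11. Of these probes 1 passed (6.25%, beside 5.44% of all entered probes). That probe belongs to Napa, which encodes alpha-SNAP, the adaptor that recruits the ATPase NSF to spent SNARE complexes. Its level was −4.08, −4.20 and −4.13 in the 3 BTBR mice, against 1.63, 1.17 and 0.84 in the 3 C57BL/6J mice. The strains were far apart and the BTBR mice lay close together (SD 0.06, against 0.40 in C57BL/6J; n = 3 each). The probe was 40.7-fold lower in BTBR, a difference of −5.35 ± 0.20 (SE, limma adjusted p = 8.99e-05), and it was well above background on every array. Its difference was −4.14 with normexp background correction and −3.40 in the authors' deposited matrix, and it passed in both. On each slide alone it was −5.54 on the slide with mice 1 and 2 of each strain and −4.97 on the slide with mouse 3 of each. The other Napa probes did not share it. A probe starting 1151 bases upstream in the same RefSeq transcript had 4.45, 4.09 and 4.64 in BTBR mice, against 4.48, 4.49 and 4.39 in C57BL/6J mice, a difference of −0.06 (adjusted p = 0.920). The third, on another transcript model, differed by 0.07 (adjusted p = 0.882). The most 3′ of the Napa probes was thus low in BTBR, while on the probes upstream of it the strains overlapped.

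The other SNARE genes had no probe past the test. Snap25, the palmitoylated plasma membrane SNARE, had 3 entered probes with differences of 0.11 to 0.22, and its brightest gave 0.22 ± 0.19 (SE). Of these, 2 start at bases 1736 and 1756 of the same cDNA, so they overlap and are not separate readings. Stx1a, the neuronal syntaxin, differed by 0.12 ± 0.27 on its single probe. Its 95% interval of −0.52 to 0.77 leaves room for a change of over 1.5-fold upward. Vamp2, the main forebrain synaptobrevin, had 3 probes, of which the brightest differed by −0.03 ± 0.13, and a pair of them share 50 of their 60 bases. Vamp1, its paralogue, had 2 entered probes and −0.30 ± 0.35 on the brightest. Nsf, the disassembly ATPase, had 2 probes at 0.18 and 0.19. Napb, beta-SNAP and the brain paralogue of Napa, had 2 probes at 0.10 and 0.11, and the brightest did not overlap between the strains, with 5.33 ± 0.03 in BTBR and 5.22 ± 0.04 in C57BL/6J (SD, n = 3 each; adjusted p = 0.681). Neither Napb probe had a lower mean in BTBR.

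SNARE regulators and calcium sensors held 28 entered probes of 12 genes, with a median difference of 0.09. Of these probes 1 passed (3.57%, beside 5.44% of all entered probes). Syt1, synaptotagmin-1, is the calcium sensor of fast synchronous release in forebrain neurons, and it had 6 probes. The one that passed had −0.14, −0.12 and −0.13 in BTBR mice, against 0.89, 0.76 and 0.76 in C57BL/6J mice. The BTBR mice differed among themselves by far less than the strains did. It was 1.91-fold lower in BTBR (−0.93 ± 0.10, SE, adjusted p = 0.00322), with −0.95 on the first slide and −0.89 on the second. A probe 683 bases upstream in the same transcript also lay lower in every BTBR mouse, at 0.82, 0.66 and 0.88, against 1.23, 1.39 and 1.18 in C57BL/6J mice, but did not pass (−0.48 ± 0.12, adjusted p = 0.0811). Probes farther along the transcript on either side lay near 0. One 1587 bases upstream differed by 0.10, and those 1682 and 1731 bases downstream, which share 11 bases, differed by 0.05 and 0.15. The sixth, on another transcript model, differed by 0.31 (adjusted p = 0.500). The Syt1 difference thus lay in the middle of the probed stretch of the transcript and was not found at its ends.

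**Figure D2:**
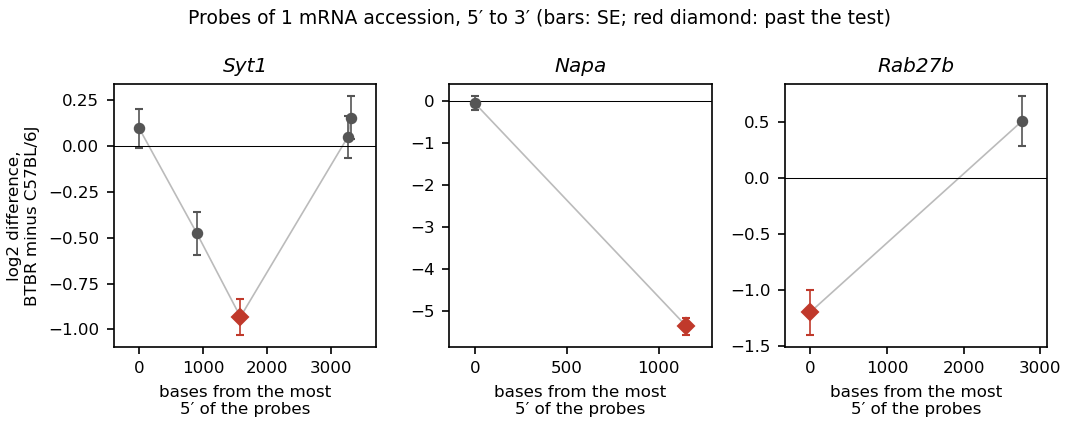
Log2 difference (BTBR minus C57BL/6J, y axis; bars, standard error) of the probes of Syt1, Napa and Rab27b that lie on 1 RefSeq transcript, by distance in bases from the most 5′ probe (x axis). Red diamonds passed the test. In Syt1 the difference of −0.93 lies beside a probe at −0.48 that did not pass, with probes near 0 on either side. In Napa −5.35 lies at the 3′ end, and in Rab27b −1.20 lies 5′ of a probe at 0.51.

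Among the other synaptotagmins of the 42 genes, Syt11 came nearest to the threshold in the opposite direction. Syt11, which like Syt4 does not bind calcium in the manner of Syt1, had 2.95, 2.80 and 2.93 in BTBR mice on 1 of its 2 probes, against 2.28, 2.45 and 2.46 in C57BL/6J mice. The strains did not overlap, and the difference of 0.50 ± 0.11 missed the threshold (adjusted p = 0.0551), while the second probe gave 0.11 ± 0.10. Both Syt4 probes also lay higher in every BTBR mouse, with mean differences of 0.22 and 0.34, and neither passed (adjusted p = 0.425 and 0.203). Syt2, the fast sensor of hindbrain and some inhibitory terminals, had −3.57, −3.65 and −2.42 in BTBR mice, against −2.57, −2.70 and −2.19 in C57BL/6J mice. BTBR 3 overlapped C57BL/6J mice there, and the difference of −0.72 ± 0.35 did not pass (adjusted p = 0.376). Without BTBR 3, the mouse that overlapped, it passed, at −1.12 (adjusted p = 0.0303). That was 1 of the 6 fits that leave out 1 mouse. Of 19 alternatives it passed in 2, with adjusted p up to 0.962. Syt7, a sensor of slower release, had 4 probes at 0.14 to 0.32, and Syt5 differed by −0.06 ± 0.12 on 1 probe.

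Complexins, which bind assembled SNAREs, had no probe past the test. Cplx1 gave 0.07 ± 0.17 (SE) on 1 probe. Cplx2 had 4 probes between −0.05 and 0.08, and its brightest was 6.64 ± 0.02 in BTBR and 6.56 ± 0.03 in C57BL/6J (SD, n = 3 each; adjusted p = 0.76). Stxbp5, tomosyn, which occupies syntaxin and holds back priming, had 4 entered probes between −0.02 and 0.14. Snph, syntaphilin, which anchors mitochondria in axons, differed by 0.09 ± 0.11 on 1 probe. The Doc2 proteins are calcium sensors of spontaneous and asynchronous release. Doc2a had 2.71, 2.28 and 2.48 in BTBR mice, against 2.60, 1.52 and 1.71 in C57BL/6J mice (0.55 ± 0.29, adjusted p = 0.438). Doc2b had −4.69, −3.12 and −4.84 in BTBR mice, against −4.84, −4.37 and −1.49 in C57BL/6J mice (−0.65 ± 0.94, adjusted p = 0.817), the widest error of the 90 probes. Its highest values in each strain were on the arrays of BTBR 2 and C57BL/6J 3, those with the highest striatal marker levels, whose part in it was not tested.

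Active zone scaffold and priming genes held 14 entered probes of 7 genes, with a median difference of 0.14. Of these probes 2 passed (14.3%, beside 5.44% of all entered probes). Both belong to Munc13 genes, whose proteins open syntaxin and make vesicles ready for release. The Unc13b probe that passed had −5.60, −5.88 and −5.99 in BTBR mice, against −4.88, −4.97 and −4.99 in C57BL/6J mice. The strains did not overlap, but the signal was dim and was well above background on only 2 of the 3 BTBR arrays. It was 1.84-fold lower in BTBR (−0.88 ± 0.13, SE, adjusted p = 0.0139). The probe is annotated to another transcript model than the other probes of the gene and starts 95026 bases from the nearest of them. Those other probes lay higher in BTBR, by 0.32 and 0.20, and did not pass (adjusted p = 0.410 and 0.620). The probe shown above for comparison had −0.41, −0.89 and −0.37 in BTBR mice, against −0.91, −0.90 and −0.81 in C57BL/6J mice, with BTBR 2 among the C57BL/6J values.

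Unc13a, the Munc13 of most excitatory synapses, had 2 probes with a like contrast. The probe that passed had −3.08, −2.86 and −3.18 in BTBR mice, against −2.48, −2.37 and −2.38 in C57BL/6J mice. All BTBR values were below all C57BL/6J values, and the probe was 1.55-fold lower (−0.63 ± 0.12, SE, adjusted p = 0.0367). With slide as a block the call was lost (adjusted p = 0.0549). Its probe on the RefSeq transcript, 33382 bases away, had 2.64, 2.31 and 2.75 in BTBR mice, against 2.75, 2.70 and 2.31 in C57BL/6J mice, and differed by −0.02 ± 0.18. The strains overlapped fully on that probe. Unc13c, the third of the Munc13 genes, had −0.92, −0.83 and −1.63 in BTBR mice, against −1.93, −1.07 and 0.31 in C57BL/6J mice (−0.23 ± 0.56). C57BL/6J 3, the array with the highest striatal markers, had the highest Unc13c value.

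The scaffolds did not pass. Pclo, piccolo, had 3 probes with differences of −0.03, 0.15 and 0.62, the widest range among genes with no probe past the test. The last of these lay higher in every BTBR mouse, at −2.63, −2.42 and −3.04, against −3.26, −3.14 and −3.54 in C57BL/6J mice (0.62 ± 0.19, adjusted p = 0.161). It passed in 1 of 18 alternatives, with slide as a block (adjusted p = 0.0496), and in 0 of the 6 fits that leave out 1 mouse. Its adjusted p went up to 0.964. Bsn, bassoon, which with piccolo organises the active zone, had 2 probes at 0.12 and 0.14. RIM proteins link Rab3, Munc13 and calcium channels, and Rims1 differed by 0.34 ± 0.27 on 1 probe, while Rims2 had 2 probes at 0.16 and 0.17.

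**Figure D3:**
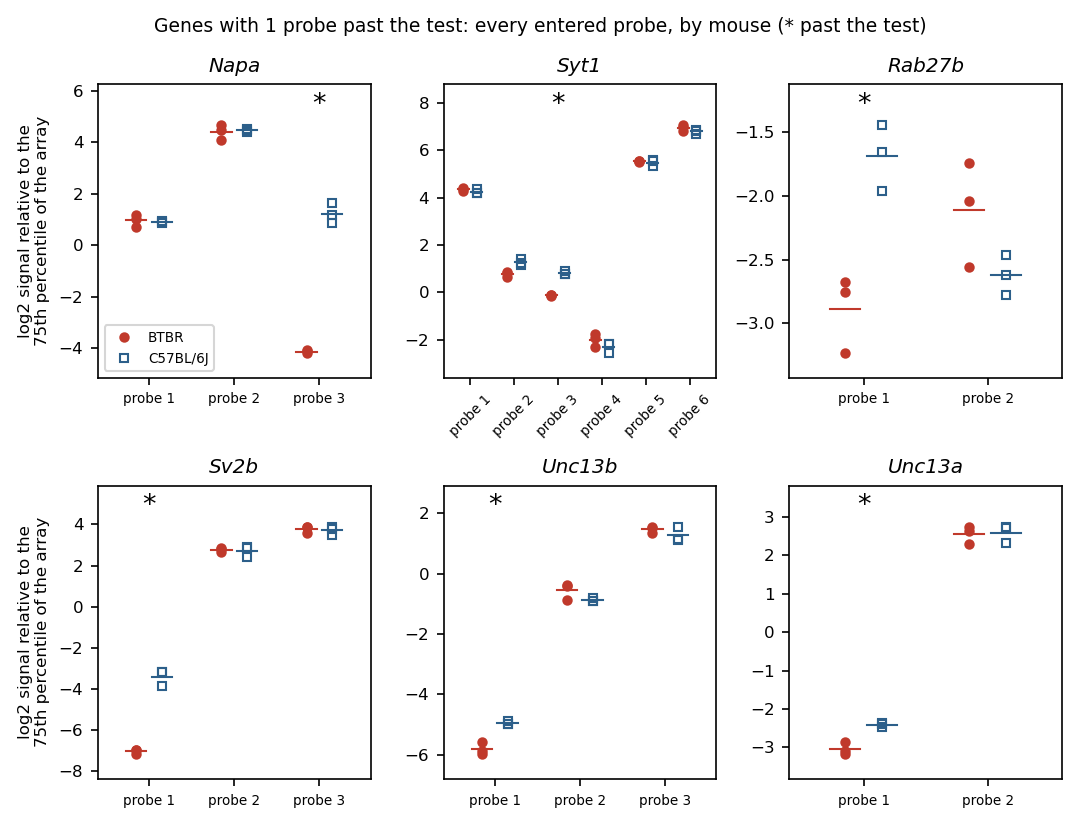
Log2 signal relative to the 75th percentile of the array (y axis) of every entered probe of the 6 genes with a probe past the test, 1 point per mouse (filled circles, BTBR; open squares, C57BL/6J; lines, means of 3 mice). Probes marked with an asterisk passed, and in the other probes of Napa, Rab27b, Sv2b, Unc13b and Unc13a the strains overlap.

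Rab proteins of vesicles were the role group with the largest share of differences below 0, 6 of 7 entered probes. Over all entered probes of the array it was 12859 of 30011. Of the 6, the Rab3a probe lay at −0.05 and the Rab3c pair, which shares 40 bases, at −0.02 and −0.07. The median difference of the group was −0.07, and 1 of the 7 probes passed (14.3%, beside 5.44% of all entered probes). Rab27b, a GTPase that acts with Rab3 in vesicle transport and docking, had −2.68, −2.75 and −3.23 in BTBR mice on that probe, against −1.66, −1.45 and −1.96 in C57BL/6J mice. The strains did not overlap, and the probe was 2.29-fold lower in BTBR (−1.20 ± 0.20, SE, adjusted p = 0.0216). A second probe 2761 bases away on the same transcript lay the other way, at −2.04, −1.74 and −2.56 in BTBR mice, against −2.47, −2.78 and −2.62 in C57BL/6J mice (0.51 ± 0.22, adjusted p = 0.325). BTBR 3 overlapped C57BL/6J mice on it. The difference between the Rab27b probes was not itself tested.

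Rab3 proteins recruit RIM to vesicles, and Rab3b was the only one of the 3 with non-overlapping strains. Its probes lay lower in every BTBR mouse, 1 at −1.36, −1.15 and −1.39, against −0.70, −0.89 and −0.29 in C57BL/6J mice (−0.67 ± 0.18, adjusted p = 0.098), and the brightest at −0.31 ± 0.14 (adjusted p = 0.349). Neither passed. Rab3a, the most abundant Rab of synaptic vesicles in brain, differed by −0.05 ± 0.11 on 1 probe, with a 95% interval of −0.31 to 0.22. Rab3c had 2 probes that share 40 bases, at −0.02 and −0.07.

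Proteins of the vesicle membrane and those bound to it had 17 entered probes of 7 genes, with a median difference of 0.04. Of these probes 1 passed (5.88%, beside 5.44% of all entered probes). That probe belongs to Sv2b, a transporter-like glycoprotein of synaptic vesicles. This Sv2b probe had −7.18, −6.95 and −6.98 in BTBR mice, not well above background on any of these arrays, against −3.19, −3.17 and −3.84 in C57BL/6J mice, well above background on all 3. Only a bound is therefore given: the probe was at least 7.95-fold lower in BTBR. The bound sets the C57BL/6J mean against the dimmest measured signal of the BTBR arrays or the signal of the probe itself, whichever was higher. Measured means were −7.03 in BTBR and −3.40 in C57BL/6J. The adjusted p of 0.000258 was for the difference between these means, with BTBR signals not well above background, and does not test the bound. The probe passed the filter only through the C57BL/6J arrays, where it was high, and with no filter on dim probes its adjusted p was 0.00105. The bound holds for the main setting only. With normexp background correction the difference was −1.23 (adjusted p = 0.704), smaller than the bound. In the authors' deposited matrix it was −0.53 (adjusted p = 0.0118), also smaller. Strain differences in that matrix were smaller over the whole array (slope 0.549 on scanner values), so this value is not on the scale of the bound. The probe is annotated to a different cDNA from the other probes of the gene and starts 87506 bases from the nearest. Those, on the RefSeq transcript, had means of 3.76 in BTBR and 3.72 in C57BL/6J on the brightest, and both differed by 0.04 (adjusted p = 0.943 and 0.944). The Sv2b transcript read by those probes thus overlapped between the strains.

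Sncb, beta-synuclein, an abundant terminal protein that binds vesicle lipids, had 2 probes that lay lower in every BTBR mouse. The brightest had 0.49, −0.06 and 0.92 in BTBR mice, against 1.18, 1.72 and 1.07 in C57BL/6J mice (−0.87 ± 0.29, SE, adjusted p = 0.187). The other had −0.92, −1.32 and −0.74 in BTBR mice, against −0.41, −0.14 and −0.41 in C57BL/6J mice (−0.67 ± 0.18, adjusted p = 0.103). The strains did not overlap on either probe, yet neither passed. On the slide with 1 mouse per strain the brightest differed by −0.15, and on the slide with 2 mice per strain by −1.24.

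Synapsins, which tether the reserve pool of vesicles to each other, lay near 0 or slightly above. Syn1 had 2 probes, the brightest at −0.03 ± 0.22 and the other at 0.50 ± 0.18 (adjusted p = 0.231), which did not overlap, with 1.35, 0.99 and 1.01 in BTBR mice, against 0.80, 0.76 and 0.30 in C57BL/6J mice. Syn2 had 3 probes between −0.03 and 0.20. Syn3 had 4 entered probes between 0.02 and 0.40, with 0.40 ± 0.22 on the brightest. Syp, synaptophysin, a major vesicle membrane protein often used to count synapses, differed by −0.01 ± 0.15 on 1 probe, with a 95% interval of −0.37 to 0.35. Sv2a, the target of levetiracetam, had 2 probes that both differed by 0.06.

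Sv2c, the paralogue known from the basal ganglia, had −6.95, −5.07 and −7.91 in BTBR mice, against −7.87, −8.86 and −5.15 in C57BL/6J mice. It was well above background on 1 array per strain, those of BTBR 2 and C57BL/6J 3, and no difference is given. These were the arrays with the highest striatal marker sum in each strain, 59.1 and 191.7, and its part in the Sv2c signal was not tested.

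Endocytosis genes had 8 entered probes, none past the test, all between −0.18 and 0.30, with a median difference of 0.06. One of the 8 had p under 0.05 with no adjustment (12.5%, beside 16.8% of all entered probes). Dnm1, the dynamin that cuts vesicles off the membrane, differed by 0.02 ± 0.23 (SE). Amph, amphiphysin, which brings dynamin to the neck of the bud, had 2 probes, the brightest at 0.03 ± 0.12. Synj1, the lipid phosphatase that strips clathrin, had 3 probes, the brightest at 0.09 ± 0.12. Sh3gl2, endophilin A1, which recruits synaptojanin, had 2 entered probes and −0.18 ± 0.15 on the brightest.

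Among the 6 genes with a probe past the test, the 13 other entered probes lay between −0.48 and 0.51 and none passed. Among the 23 genes with at least 2 entered probes and none past the test, the probes of a gene differed from each other by a median of 0.18 and at most 0.65. By the brightest probe of each gene alone, 1 of 41 members passed, that of Rab27b, beside 5.54% of 19545 gene names on the array counted that way.

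Mice of the same strain also differed from each other in these genes. C57BL/6J 3 was the lowest of its strain in 45 of the 90 probes, C57BL/6J 1 in 28 and C57BL/6J 2 in 17. BTBR 2 was the lowest of its strain in 43, BTBR 3 in 38 and BTBR 1 in 9. BTBR 2 was also the highest in 27 and BTBR 3 in 28. The same counts over all entered probes of the array were not made. Among BTBR mice Stx1a was lowest on the array of BTBR 2, at 3.62, with 4.24 and 4.41 in the others. Among C57BL/6J mice it was lowest on that of C57BL/6J 3, at 3.55, with 4.13 and 4.22 in the others. The brightest Vamp1 probe had 3.80, 3.21 and 4.44 in BTBR mice, against 4.31, 4.38 and 3.65 in C57BL/6J mice. The brightest Snap25 probe was at 5.28, 5.26 and 5.20 in BTBR mice, against 5.25, 5.22 and 4.61 in C57BL/6J mice. On the same pair of arrays Sv2c and Doc2b were highest, the opposite arrangement to Stx1a and Vamp1. Striatal markers moved with both sets, and their part was not tested.

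**Figure D4:**
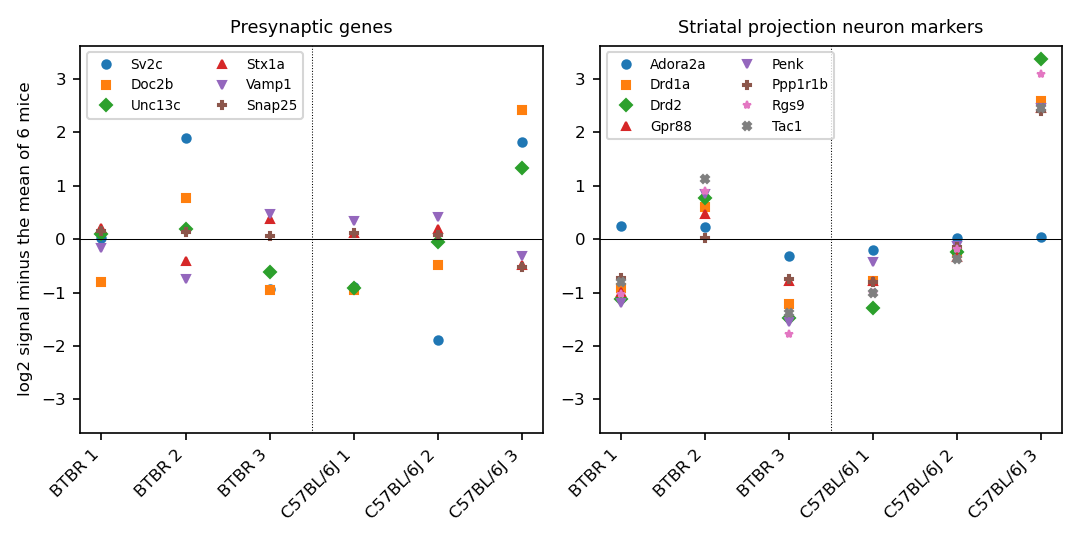
Log2 signal minus the mean of the 6 mice (y axis) for each mouse (x axis) of 6 presynaptic genes chosen after their values were seen (left) and of 8 striatal projection neuron markers (right), brightest probe each. On the C57BL/6J 3 array Sv2c, Doc2b and Unc13c lie high with 7 of the 8 markers, the exception being Adora2a, while Stx1a, Vamp1 and Snap25 lie low.

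Other genes of the presynaptic terminal, a further list of 76, gave 151 entered probes of 75 genes. Of these probes 3 passed (1.99%, beside 5.44% of all entered probes), 2 higher and 1 lower in BTBR. Their median difference was 0.06, and 123 of the 151 (81.5%) lay within 0.25 of 0, beside 65.1% of all entered probes. Syt10, a synaptotagmin described in mouse olfactory bulb neurons as a sensor of IGF-1 secretion, had 1.11, 1.13 and 0.87 in BTBR mice, against −1.43, −0.91 and −1.86 in C57BL/6J mice. It was 5.40-fold higher in BTBR (2.43 ± 0.24, SE, adjusted p = 0.00269) and the strains were far apart, while its second, dim probe differed by 0.80 (adjusted p = 0.470). Rab3gap2, the non-catalytic subunit of the Rab3 GTPase-activating complex, gave calls in opposite directions on probes of 1 transcript. One was 1.72-fold higher in BTBR, at −0.47, −0.15 and −0.23, against −0.83, −1.15 and −1.22 in C57BL/6J (0.78 ± 0.15, adjusted p = 0.0377), a call lost with slide as a block (adjusted p = 0.0602). Another was 2.37-fold lower, at 0.06, 0.17 and 0.26 in BTBR, against 1.64, 1.29 and 1.29 in C57BL/6J (−1.25 ± 0.14, adjusted p = 0.00399). The third of its probes differed by 0.27 and did not pass (adjusted p = 0.269). The direction of the Rab3gap2 difference thus depended on the probe.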

How the data were processed

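RNA of 6 mice was measured on 6 one-colour Agilent arrays, each labelled with Cy3 from 0.5 µg of total RNA with an integrity number of 9, as the labels' protocols state. The authors' deposited scanner output holds 1 intensity value per spot and measure on a linear scale, which Agilent Feature Extraction had read from the images; its version is 10.7.3.1 in the headers of the files and 9.1 in the submitters' processing notes. The authors' deposited matrix holds log2 values whose scaling and centring are not given in the sources used here. Its column medians were 8.82 to 8.83. Its strain differences correlated at 0.895 with those of the scanner values across 27342 probes, with a slope of 0.549, and it served as an alternative.

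Log2 of the background-subtracted signal was reduced by the 75th percentile of each array. Repeated spots of a probe were averaged, leaving out those flagged as outliers unless no other remained. No spot of the 42 genes was saturated. The fit took the 30011 probes that 3 or more arrays, of either strain, measured well above background. Strains were compared probe by probe with limma 3.58.1 (lmFit and eBayes) in R 4.3.3, two-sided, with Benjamini-Hochberg adjustment over all entered probes and a threshold of 0.05. The number of arrays limits the precision.

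The members, role groups and lists were chosen with earlier results of these data known. The naming rule was that every member is named, that probes past the test are given with each mouse's value, their other probes by difference and call, other members by their brightest entered probe and number of probes, and, of the other presynaptic list, up to 4 genes per direction past the test. For 76 member probes the accession was found among RefSeq genes (GRCm38.p6), a source of names but not of positions, and 0 carried another gene's name. Probe positions and sequences are those of the array files, in mm9; 2 Snap25 probes have no position there. Exon and UTR placement was not analysed here.

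Replicate numbers did not pair the strains: the deviations of same-numbered mice from their strain means correlated at 0.03, −0.17 and −0.08 over 30011 probes. Replicates 1 and 2 of both strains shared slide 1, and replicate 3 of both was on slide 2. On simulated data for this strain comparison over 30011 probes, with 50 probes per size of change, 82% of probes raised 4-fold were found and 10% of calls were false. Alternatives concerned the background correction, the scaling, the dim-probe filter, the handling of flagged spots, the authors' matrix, 1 probe per gene, the prior, slide and replicate blocks, a 2-fold threshold and leaving out mice.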

Additional observations from a re-analysis of the deposited data

How the results depend on the processing

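The count of presynaptic probes past the test (6 of 90) was 1 with normexp background correction (Napa), 1 of 41 with 1 probe per gene, 3 with a 2-fold threshold and 3 without BTBR 2 and C57BL/6J 3 together, an alternative chosen after seeing the data. Leaving out 1 mouse at a time gave 3 to 6, with 3 when C57BL/6J 1 or C57BL/6J 2 was left out. The count over all entered probes (1632) was 170 with normexp, of which 74.1% were lower in BTBR against 59.7% in the main setting, 1083 with 1 probe per gene, 975 with a 2-fold threshold, 1008 without BTBR 2 and C57BL/6J 3, and 858 to 1472 without 1 mouse. The count on the list of other presynaptic genes (3) was 1 with 1 probe per gene and 5 on slide 1 alone, and 2 to 4 without 1 mouse. Normexp moved the median difference over all entered probes to −0.09, against 0.04 in the main setting. With the replicate block, which the data did not bear out as a pairing, the counts were 922 over all probes, 4 presynaptic and 2 of the other list. None of the 13 probes recomputed under the alternatives changed direction. Balances did: with slide 1 alone 900 probes of the array were higher and 897 lower in BTBR, against 657 and 975 in the main setting, and without C57BL/6J 3 the other presynaptic list had 1 higher and 2 lower, against 2 and 1.

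Among the called probes, Napa passed in 18 of 18 alternatives, Syt1 in 17 of 18, missing it with normexp (adjusted p = 0.0647), and Sv2b in 16 of 17, missing it with normexp (adjusted p = 0.704). The Napa difference ranged down in size to −3.40 and that of Sv2b to −0.53, both in the authors' deposited matrix. Strain differences in that matrix were smaller over the whole array (slope 0.549 on scanner values), so its differences are not on the scale of the main setting. Rab27b passed in 13 of 19, Unc13b in 9 of 17 and Unc13a in 7 of 18, with adjusted p up to 0.323, 0.962 and 0.811. Of the 6 fits that leave out 1 mouse, Napa, Syt1 and Sv2b passed in 6, Unc13b in 3, Rab27b in 2 and Unc13a in 1. In the authors' deposited matrix the Unc13b difference was −0.11 (adjusted p = 0.298). Syt11 passed, higher in BTBR, with the authors' matrix (adjusted p = 0.0253) and with a trended, robust prior (adjusted p = 0.0155), as did the second Syt1 probe, lower in BTBR (adjusted p = 0.0471 and 0.0369). Syt10 passed in 19 of 19 and the lower Rab3gap2 probe in 18 of 18, but the higher Rab3gap2 probe in 7 of 18. Of the 90 probes, 48 differed in the same direction on both slides. Depth on arrays is signal over background. Among entered probes, the called Unc13b and Sv2b probes and the dimmer Sh3gl2 probe were near background in BTBR mice. Their values there are the least certain.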
